A study of Homo sapiens with 30 samples.

Results

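The transcription factors and effectors of the integrated stress response were followed in A549 cells, an established line derived from a human lung carcinoma, after treatment with extracts of herbal formulas. They are 10 genes, chosen by symbol from the deposited expected-count table: ATF4, ATF3, ATF5, DDIT3, CEBPB, CEBPG, TRIB3, CHAC1, PPP1R15A and NUPR1. Each symbol matched 1 of the table's 60675 Ensembl identifiers, and all 10 genes were among the 17459 that passed the filter on low counts.

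The cells were exposed for 24 h to an ethanol extract of Soshiho-tang or Yijin-tang, with 3 libraries at each of 20, 100 and 500 µg/mL, of Okbyeongpung-san, with 2 libraries per dose, or of Soyo-san, with 1 library per dose. The controls were 3 libraries of cells given the solvent DMSO, called vehicle below, whose concentration differs between the labels and the series text. The labels do not say that replicates were separate cultures, so p-values measure the spread between these libraries, which may be technical.

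The integrated stress response begins with kinases that sense amino acid shortage, misfolded protein in the endoplasmic reticulum, heme shortage or double-stranded RNA, and that phosphorylate the translation factor eIF2. Most translation is then slowed while the messenger RNA of ATF4 is translated more, and ATF4 protein, paired with factors of the C/EBP family, induces genes of amino acid supply together with further regulators. Among those regulators DDIT3 (also called CHOP) and TRIB3 are linked to cell death under lasting stress, and PPP1R15A (also called GADD34) directs the dephosphorylation of eIF2 and so closes the loop. Since much of the control of ATF4 acts on translation, its messenger RNA level reports only part of its activity.

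ATF4 and its C/EBP partners bind a composite element whose common form is TGATGNAA. It was searched on both strands, as the only motif, in RefSeq promoter windows of GRCh38.p14 that run from 250 bases before a transcription start to 50 after it. Windows were found for 9 of the 10 genes, 18 windows in all, and 3 of these held a match, each in a different gene. Of all 27305 genes with windows, 1217, or 4.46%, had a match, and of all 35116 windows 1270, or 3.62%, did. The 3 windows are shown because they hold a match to this string of letters. Capitals mark the match. The ATF3 window lies at chr1:212565157-212565456, the CEBPG window at chr19:33373863-33374162 and the CHAC1 window at chr15:40953221-40953520, all on the plus strand, and the CEBPG and CHAC1 windows start inside the gene spans of GENCODE release 29.
ATF3: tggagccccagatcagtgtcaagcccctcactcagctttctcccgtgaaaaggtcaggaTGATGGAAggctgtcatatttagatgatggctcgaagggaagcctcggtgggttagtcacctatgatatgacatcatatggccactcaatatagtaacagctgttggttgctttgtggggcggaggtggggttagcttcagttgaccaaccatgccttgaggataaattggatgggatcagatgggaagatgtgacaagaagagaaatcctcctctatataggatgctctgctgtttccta
CEBPG: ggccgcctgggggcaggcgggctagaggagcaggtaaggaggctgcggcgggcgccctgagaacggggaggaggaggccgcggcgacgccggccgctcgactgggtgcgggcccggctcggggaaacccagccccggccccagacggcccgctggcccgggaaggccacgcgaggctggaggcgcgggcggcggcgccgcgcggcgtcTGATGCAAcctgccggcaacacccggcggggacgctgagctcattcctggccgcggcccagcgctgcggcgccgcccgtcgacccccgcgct
CHAC1: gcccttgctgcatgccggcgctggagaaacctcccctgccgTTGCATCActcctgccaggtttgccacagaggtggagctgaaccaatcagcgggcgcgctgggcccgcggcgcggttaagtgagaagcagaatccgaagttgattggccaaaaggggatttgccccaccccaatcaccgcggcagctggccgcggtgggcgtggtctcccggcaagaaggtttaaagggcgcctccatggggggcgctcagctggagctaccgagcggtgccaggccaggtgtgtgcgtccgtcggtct
The match in ATF3 reads TGATGGAA and ends 184 bases before the start. The matches in CEBPG and CHAC1 both read TGATGCAA, in CHAC1 on the minus strand, and lie 35 to 42 and 202 to 209 bases before the start. A match in this window is a description of its letters, not a measured binding site, and the lack of one in the other windows says nothing of the factor.

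The libraries held 19833144 to 38008463 counts. Vehicle libraries stood apart: the treated libraries held at least 24560759 counts, against at most 22327652 in vehicle, and mitochondrially encoded messenger RNAs took 6.22 to 9.89% of counts in the treated libraries, against 10.5 to 10.9% in vehicle. For this reason each highest dose was set against vehicle and also against 20 µg/mL of the same extract. The epithelial keratins KRT7, KRT8 and KRT18, the cell adhesion gene CDH1 and EPCAM were present in all 30 libraries, with EPCAM low at 3.91 to 6.35 CPM, counts scaled to library totals adjusted by the TMM method. PTPRC and CD3E of immune cells, DCN of fibroblasts, VWF of endothelium and ALB of hepatocytes were at or near 0, while CD68, COL1A1 and COL3A1 were detected at 6.80 to 17.1, 16.3 to 31.9 and 4.56 to 6.63 CPM. The library titles put 6 libraries in a batch D, 3 of Soyo-san and every replicate 3 of Okbyeongpung-san, and the others in a batch E, without saying what a batch is.

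Soshiho-tang at 500 µg/mL raised most of the group. Against vehicle 8 of the 10 genes were higher and ATF5 was lower, and against 20 µg/mL of the same extract 9 were higher and 0 lower. Of all genes tested, 33.1% were called against vehicle, with 17.2% higher and 16% lower, and 20.6% against 20 µg/mL, with 10.3% higher. The median log2 fold change of the 10 genes was 1.12 against vehicle, where that of all genes was 0.01, and 1.15 against 20 µg/mL. Every library at 500 µg/mL was above every vehicle library in 8 of the 10 genes and in 25.7% of all genes tested. Against 20 µg/mL this was so for 9 of the 10 genes and for 19.1% of all genes. Calls rest on edgeR's quasi-likelihood test, with p-values adjusted by the Benjamini-Hochberg method over all 17459 genes and a threshold of 0.05.

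**Figure D1:**
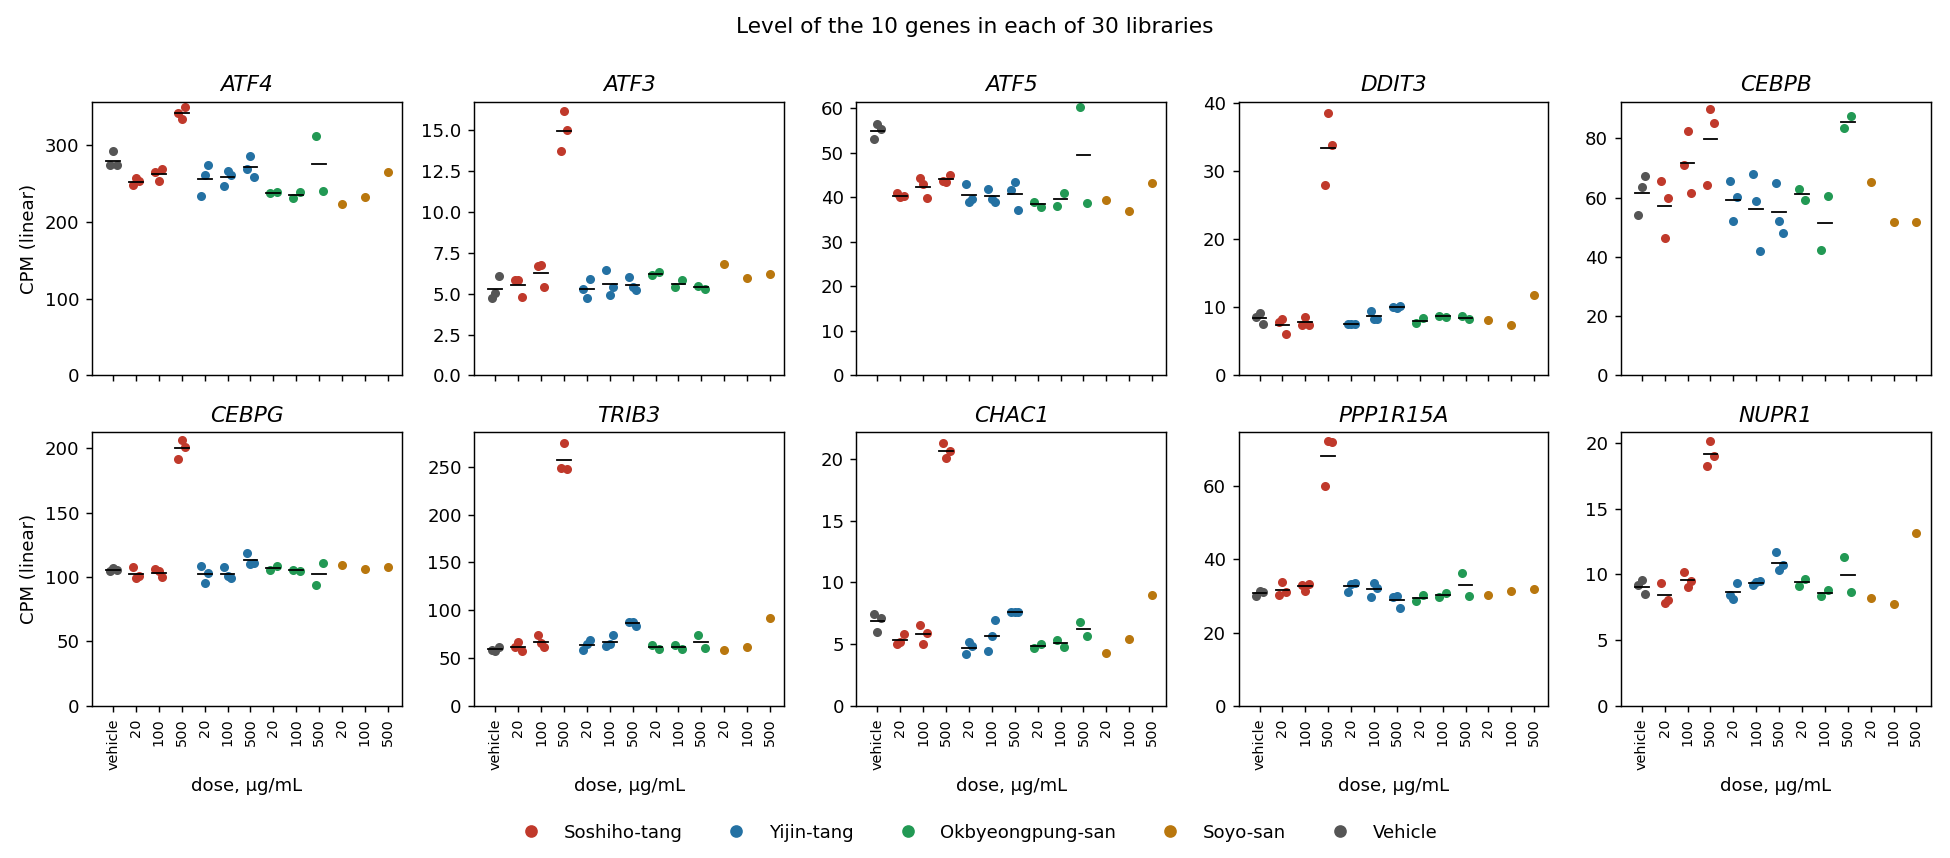
Level of each of the 10 genes in the 30 libraries, in CPM on a linear scale, by extract and dose in µg/mL; a point is 1 library and a black line the mean of a group with more than 1 library. For ATF4, ATF3, DDIT3, CEBPG, TRIB3, CHAC1, PPP1R15A and NUPR1 all 3 libraries of Soshiho-tang at 500 µg/mL lie above the 27 others.

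ATF4, the central transcription factor (ENSG00000128272, chromosome 22, 39519695 to 39522685 of GRCh38, plus strand, protein-coding as are the other 9 genes), moved little in its messenger RNA. Replicates 1, 2 and 3 held 341, 333 and 349 CPM with Soshiho-tang at 500 µg/mL, against 273, 291 and 273 CPM with vehicle. The groups did not overlap, and ATF4 rose by 0.29 ± 0.07 on the log2 scale against vehicle (SE; adjusted p = 0.0020, edgeR's quasi-likelihood test) and by 0.44 ± 0.07 against 20 µg/mL. This was the smallest log2 fold change among the 8 genes called higher against vehicle.

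The transcription factors that ATF4 induces moved further. DDIT3, a C/EBP-family factor known for promoting cell death (ENSG00000175197, chromosome 12, 57516588 to 57521737, minus strand), held 28.0, 38.5 and 33.9 CPM with Soshiho-tang at 500 µg/mL, against 8.60, 9.24 and 7.48 CPM with vehicle. Every treated library was above every vehicle library, and the log2 fold change was 1.99 ± 0.11 (adjusted p = 2.14e-12), with 2.18 ± 0.11 against 20 µg/mL. ATF3, a stress-induced repressor and activator (ENSG00000162772, chromosome 1, 212565334 to 212620777, plus strand), held 13.7, 16.2 and 15.0 CPM, against 4.77, 5.02 and 6.07 CPM with vehicle. It was again higher in each treated library, 2.83-fold against vehicle (95% interval of the log2 fold change 1.27 to 1.73, adjusted p = 6.46e-10) and 2.72-fold against 20 µg/mL.

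The C/EBP partners split. CEBPG, which forms dimers with ATF4 on amino acid response genes (ENSG00000153879, chromosome 19, 33373330 to 33382686, plus strand), held 192, 207 and 201 CPM with Soshiho-tang at 500 µg/mL, against 105, 107 and 105 CPM with vehicle. Replicates lay close together and the groups far apart, with a log2 fold change of 0.92 ± 0.06 (adjusted p = 3.05e-11). CEBPB, a partner also active in inflammation (ENSG00000172216, chromosome 20, 50190734 to 50192689, plus strand), held 64.3, 89.9 and 85.1 CPM, against 54.1, 63.5 and 67.3 CPM with vehicle. Replicate 1 lay inside the vehicle range, and the difference of 0.37 ± 0.17 was not called (adjusted p = 0.0895), though without that replicate it was 0.51 and called. Against 20 µg/mL CEBPB rose by 0.48 ± 0.16 (adjusted p = 0.0391), a call that was lost, at 0.36 to 0.52, on leaving out replicate 2 or 3 of either dose.

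Of the effectors, TRIB3 rose the most. This pseudokinase, which binds ATF4 and DDIT3 and restrains the kinase AKT (ENSG00000101255, chromosome 20, 362835 to 397559, plus strand), held 249, 275 and 248 CPM with Soshiho-tang at 500 µg/mL, against 58.5, 57.7 and 61.6 CPM with vehicle. That is a 4.34-fold difference, a log2 fold change of 2.12 ± 0.09 (adjusted p = 8.24e-15, edgeR's quasi-likelihood test), and these groups did not overlap. CHAC1, an enzyme that degrades glutathione (ENSG00000128965, chromosome 15, 40952962 to 40956519, plus strand), held 21.3, 20.1 and 20.7 CPM, against 7.44, 6.01 and 7.11 CPM with vehicle. It rose by 1.59 ± 0.12 against vehicle (adjusted p = 4.08e-10) and by 1.95 ± 0.12 against 20 µg/mL, where vehicle was the higher of the low groups.

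PPP1R15A, the stress-induced subunit of the phosphatase that acts on eIF2 (ENSG00000087074, chromosome 19, 48872392 to 48876057, plus strand), held 60.0, 72.4 and 72.2 CPM with Soshiho-tang at 500 µg/mL, against 29.9, 31.5 and 31.0 CPM with vehicle. Its lowest treated library was clear of the vehicle libraries, and it rose by 1.15 ± 0.08 (adjusted p = 4.76e-11). NUPR1, a small nuclear protein induced by stress (ENSG00000176046, chromosome 16, 28532708 to 28539174, minus strand), held 18.3, 20.2 and 19.0 CPM, against 9.17, 9.54 and 8.47 CPM with vehicle. The groups were again apart, by 1.08 ± 0.09 (adjusted p = 2.85e-09). In bulk RNA a change in the level per cell cannot be told apart from a change in the share of cells that hold the transcript.

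In the 8 genes other than ATF5 and CEBPB the 3 libraries of Soshiho-tang at 500 µg/mL exceeded the 27 others, which was so for 6.05% of all genes tested. The calls of these 8 genes against vehicle and against 20 µg/mL held whichever single library was left out. Some of the loci overlap other genes, and the strand setting of the counting is not stated, so their assignment is uncertain. DDIT3 overlaps MARS1, the methionine transfer RNA synthetase gene, on the opposite strand. MARS1 held 241916 counts over all libraries, against 9295 for DDIT3, and itself rose by 0.69 ± 0.05 against vehicle. DDIT3 also overlaps MBD6 on the opposite strand, with 39544 counts and a difference of −0.24 ± 0.11. CEBPB overlaps the antisense RNA CEBPB-AS1, which held 1020 counts against 53514 for CEBPB.

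Among the doses of Soshiho-tang these 8 genes were called higher at 500 µg/mL only. With Soshiho-tang at 20, 100 and 500 µg/mL the mean level of DDIT3 was 7.40, 7.82 and 33.5 CPM, that of TRIB3 61.9, 67.0 and 257 CPM, and that of CHAC1 5.34, 5.82 and 20.7 CPM. Between 100 and 20 µg/mL edgeR's quasi-likelihood test called 0 of the 10 genes and 0% of all genes, and 0 of the 10 and 422 of all genes had an unadjusted p below 0.05. DESeq2 also called 0 of either. Against vehicle, 1 of the 10 genes was called at 100 µg/mL (10.8% of all genes called, 5.19% lower) and 1 at 20 µg/mL (8.02% and 3.96%), in both cases ATF5, which was lower.

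**Figure D2:**
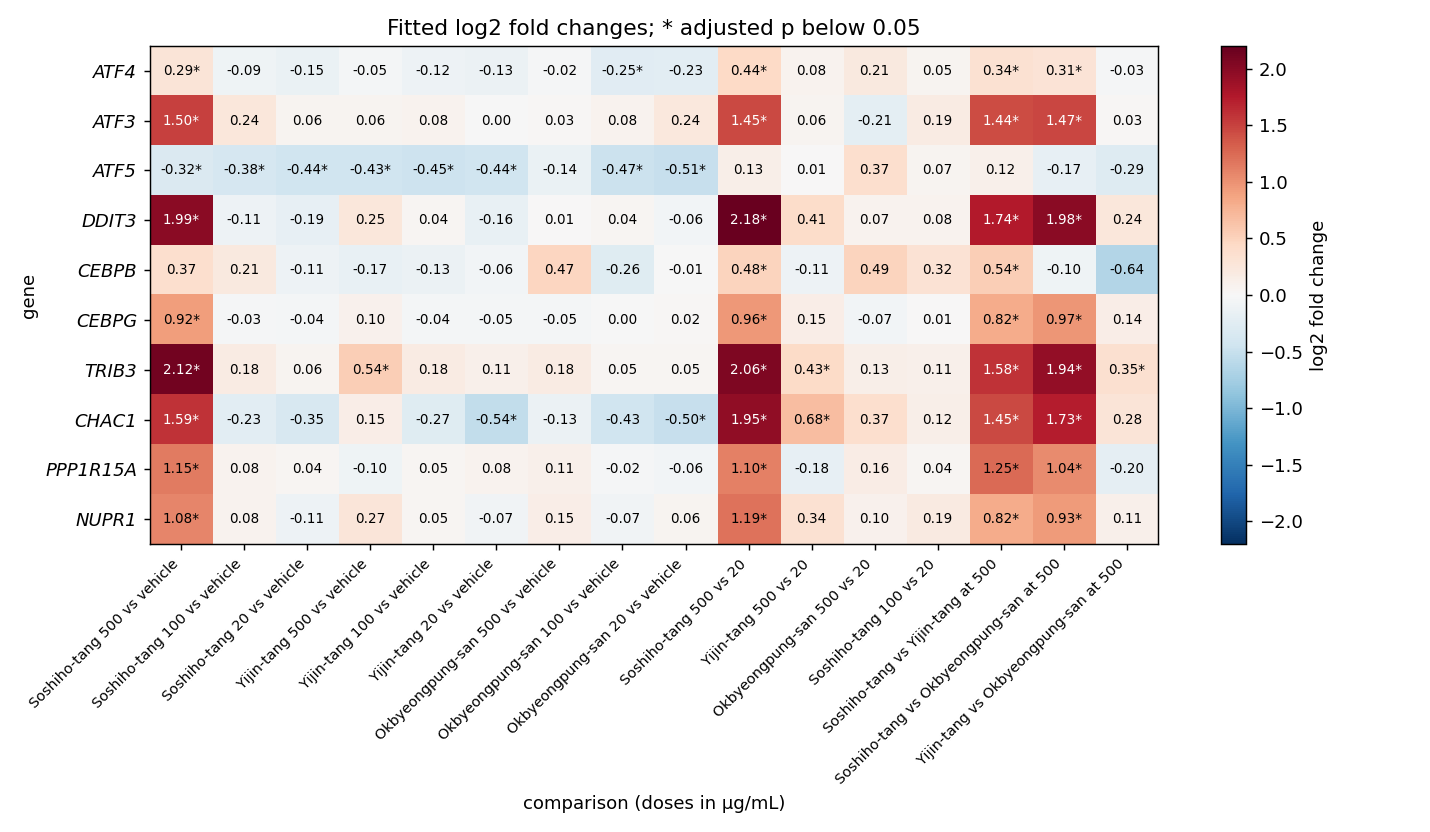
Fitted log2 fold change of each gene (rows) in 16 comparisons (columns, doses in µg/mL), with the first group named over the second; red is higher and blue lower in the first, and an asterisk marks an adjusted p below 0.05. The columns that set Soshiho-tang at 500 µg/mL against vehicle, against 20 µg/mL or against another extract hold most of the called cells. ATF5 is lower than vehicle in 9 of 9 columns, 8 of them called, where 8.02 to 33.1% of all genes were called per column.

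Soshiho-tang was also set against the other replicated extracts at 500 µg/mL. The groups compared hold no vehicle library, though vehicle was part of the shared fit and so of its estimate of spread. Against Yijin-tang 9 of the 10 genes were higher and 0 lower (12.6% of all genes called, 6.31% higher), and against Okbyeongpung-san 8 were higher and 0 lower (18.7% of all genes called, 9.14% higher). TRIB3 was higher by 1.58 ± 0.08 and 1.94 ± 0.10 in these comparisons, DDIT3 by 1.74 ± 0.10 and 1.98 ± 0.12, and PPP1R15A by 1.25 ± 0.07 and 1.04 ± 0.08. The smallest called differences were those of ATF4, 0.34 ± 0.07 against Yijin-tang and 0.31 ± 0.08 against Okbyeongpung-san, and the second was lost, at 0.14, without replicate 3 of Okbyeongpung-san at 500 µg/mL. CEBPB was higher than with Yijin-tang by 0.54 ± 0.16 (adjusted p = 0.0315, edgeR's quasi-likelihood test), a call lost, at 0.44 to 0.51, without replicate 2 or 3 of either extract.

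Whether the effect of dose itself differed between extracts was tested as the difference of the 500 over 20 µg/mL log2 fold changes. For Soshiho-tang minus Yijin-tang it was called, and positive, in 8 of the 10 genes (4.04% of all genes called, 2.27% positive). For Soshiho-tang minus Okbyeongpung-san it was called and positive in 7 of the 10 (7.01% of all genes called, 3.28% positive). ATF4, at 0.36 ± 0.10 against Yijin-tang, lost its call, at 0.31 to 0.38, without any single library but Yijin-tang replicate 1 at 20 µg/mL and replicate 2 at 500 µg/mL. DDIT3 showed the widest gap, 1.77 ± 0.15 and 2.11 ± 0.18, and the medians over the 10 genes were 1.06 and 1.06. ATF5 was called in neither, and its differences were 0.12 ± 0.13 and −0.24 ± 0.15. The second was 0.12 without replicate 2 of Okbyeongpung-san at 500 µg/mL and −0.51 without replicate 3. Each of these fits leaves 1 library at that dose.

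**Figure D3:**
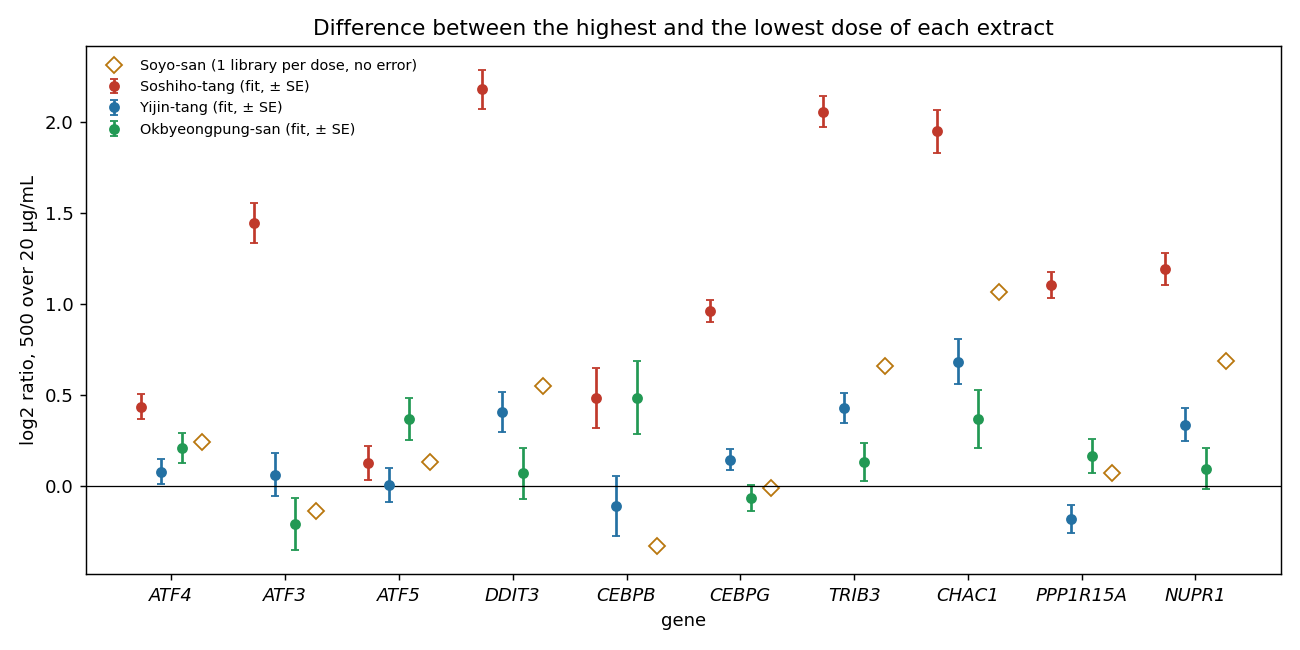
Log2 ratio of 500 over 20 µg/mL for each gene and extract; filled points are fitted values with their SE, and open diamonds are ratios of single Soyo-san libraries with no error. Soshiho-tang lies highest for ATF4, ATF3, DDIT3, CEBPG, TRIB3, CHAC1, PPP1R15A and NUPR1, and for CHAC1, TRIB3, DDIT3 and NUPR1 Yijin-tang and Soyo-san lie above 0 as well.

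Yijin-tang raised a subset at its top dose, and by less. Against 20 µg/mL of Yijin-tang, CHAC1 and TRIB3 were higher and 0 genes lower, in a comparison that called 0.705% of all genes, 0.286% of them higher. CHAC1 held 7.64, 7.58 and 7.58 CPM at 500 µg/mL, against 4.18, 5.15 and 4.82 CPM at 20 µg/mL. The 3 libraries at 500 µg/mL were nearly equal and all above the others, and the difference was 0.68 ± 0.12 (adjusted p = 0.00424, edgeR's quasi-likelihood test). TRIB3 held 87.1, 87.8 and 83.2 CPM at 500 µg/mL, against 58.3, 64.2 and 69.1 CPM at 20 µg/mL. Here too the doses did not overlap, and the difference of 0.43 ± 0.08 was called (adjusted p = 0.00824) but not, at 0.37 and 0.41, without replicate 1 at 20 µg/mL or replicate 2 at 500 µg/mL.

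DDIT3 and NUPR1 fell short of the threshold in the same comparison. DDIT3 held 9.99, 9.91 and 10.2 CPM with Yijin-tang at 500 µg/mL, against 7.57, 7.56 and 7.52 CPM at 20 µg/mL, a difference of 0.41 ± 0.11 (adjusted p = 0.117). NUPR1 held 11.7, 10.3 and 10.7 CPM, against 8.40, 8.09 and 9.38 CPM, a difference of 0.34 ± 0.09 (adjusted p = 0.102). In both genes every library at 500 µg/mL was above every library at 20 µg/mL. This was so for 5 of the 10 genes and for 6.18% of all genes tested. PPP1R15A, in contrast, had the lower values at 500 µg/mL, with a difference of −0.18 ± 0.08 (adjusted p = 0.507).

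Against vehicle, Yijin-tang at 500 µg/mL had 1 gene called higher and 1 lower (15.7% of all genes called, 8.12% higher and 7.56% lower). TRIB3 was higher by 0.54 ± 0.08 (adjusted p = 0.000218, edgeR's quasi-likelihood test), and ATF5 was lower by 0.43 ± 0.10 on the log2 scale. CHAC1, which was called against 20 µg/mL, was 7.60 ± 0.03 CPM at 500 µg/mL and 6.85 ± 0.75 CPM in vehicle (SD, n = 3 each), a difference of 0.15 ± 0.13 that was not called. At 100 µg/mL ATF5 alone was called, and at 20 µg/mL ATF5 and CHAC1, all of them lower than vehicle (14.7% and 10.2% of all genes called, 6.82% and 5.16% lower). CHAC1 at 20 µg/mL was lower by 0.54 ± 0.13 on the log2 scale, a call lost, at −0.47 and −0.51, without vehicle replicate 1 or 3.

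Okbyeongpung-san at 500 µg/mL changed none of the 10 genes past the threshold, against vehicle or against 20 µg/mL, with edgeR's quasi-likelihood test or with DESeq2. In these comparisons 14.9% and 1.59% of all genes were called, and 1 and 4 of the 10 genes had an unadjusted p below 0.05, as did 29.8% and 17.6% of all genes. Leaving out replicate 2 or 3 leaves 1 library at 500 µg/mL, so only their levels are given. In replicate 2, of batch E, ATF4, ATF5 and PPP1R15A were 1.31, 1.55 and 1.26 times their level at 20 µg/mL in that batch. In replicate 3, of batch D, these ratios were 1.00, 1.02 and 0.98. TRIB3 was at 74.1 and 60.2 CPM in replicates 2 and 3, against a vehicle mean of 59.2 CPM. NUPR1 was at 11.4 and 8.63 CPM, against a vehicle mean of 9.06 CPM. CEBPB held 83.6 and 87.7 CPM in replicates 2 and 3 at 500 µg/mL, against 54.1, 63.5 and 67.3 CPM with vehicle. Both were above every vehicle library, which was so for 1 of the 10 genes and for 20.9% of all genes tested. The difference of 0.47 ± 0.18 was not called (adjusted p = 0.0828, edgeR's quasi-likelihood test). Within batches CEBPB at 500 µg/mL was 1.33 times its level at 20 µg/mL in batch E and 1.48 times in batch D.

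The 2 libraries of that dose differed from each other. Replicate 2, of batch E, held 311 CPM of ATF4 and 60.2 CPM of ATF5, and replicate 3, of batch D, held 239 and 38.7 CPM. Replicate 2 was also the deepest library of all, at 38008463 counts, of which 9.89% were mitochondrial messenger RNA, where replicate 3 had 27540408 counts and 6.73%. Whether batch, depth or mitochondrial share accounts for this was not tested. Compared with Okbyeongpung-san at 500 µg/mL, Yijin-tang had 1 of the 10 genes higher, TRIB3 by 0.35 ± 0.09 (adjusted p = 0.0452, edgeR's quasi-likelihood test; 2.31% of all genes called, 0.853% higher). That call was lost without either Okbyeongpung-san library, at 0.51 and 0.22, without any of the Yijin-tang libraries, at 0.33 to 0.37, and with a batch term, at 0.27.

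At lower doses Okbyeongpung-san had 2 of the 10 genes called at 100 µg/mL and 2 at 20 µg/mL, all lower than vehicle (9.49% and 10.2% of all genes called, 4.74% and 4.95% lower). These were ATF4 and ATF5 at 100 µg/mL, by 0.25 ± 0.08 and 0.47 ± 0.11 on the log2 scale, and ATF5 and CHAC1 at 20 µg/mL, by 0.51 ± 0.11 and 0.50 ± 0.15. The ATF4 call was lost, at −0.22 to −0.27, without any single library of the 2 groups, and the CHAC1 call, at −0.45 to −0.56, without vehicle replicate 1 or 3 or either library at 20 µg/mL. The ATF5 call was lost without replicate 2 at 100 µg/mL, at −0.42, and without replicate 3 at 20 µg/mL, at −0.49. With batch as a term the calls of ATF4 and ATF5 at 100 µg/mL and of CHAC1 at 20 µg/mL were lost, at −0.19, −0.37 and −0.44.

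Soyo-san, with 1 library per dose, allows no test. Its 3 libraries belong to batch D, so ratios were taken between its doses and not against vehicle. TRIB3 was at 58.2, 61.1 and 92.0 CPM at 20, 100 and 500 µg/mL, with 95% Poisson intervals, which cover counting error only, of 55.5 to 61.1 at the lowest dose and 88.6 to 95.4 at the highest. CHAC1 was at 8.97 CPM (7.94 to 10.1) at 500 µg/mL, against 4.29 CPM (3.56 to 5.12) at 20 µg/mL, a ratio of 2.09. DDIT3 and NUPR1 were 1.46 and 1.61 times as high at 500 as at 20 µg/mL, with 11.9 and 13.2 CPM at the top dose. For these 4 genes the Soyo-san library at 500 µg/mL was above all 26 libraries outside itself and Soshiho-tang at 500 µg/mL. This was so for 3.48% of all genes. Most of those 26 libraries, vehicle included, are of batch E, and the part of batch in this ranking was not tested. TRIB3, CHAC1 and NUPR1 passed a 1.5-fold difference between 500 and 20 µg/mL, which 0.57% of 11413 genes with a mean log2 CPM of at least 2 did. None of the 10 genes was 1.5-fold lower, which 0.298% of those genes were.

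The other members differed by less between these doses of Soyo-san. ATF4 was at 265 CPM (95% Poisson interval 259 to 270) at 500 µg/mL and 223 CPM (218 to 229) at 20 µg/mL. These intervals did not overlap, and the ratio was 1.18. ATF5 was at 43.2 CPM (40.9 to 45.6) and 39.3 CPM (37.0 to 41.7). PPP1R15A was at 31.9 and 30.4 CPM, CEBPG at 108 and 109 CPM, and ATF3 at 6.19 and 6.80 CPM. CEBPB was lower at the top dose, with 51.9 CPM at 500 µg/mL and 65.3 CPM at 20 µg/mL.

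ATF5, an ATF4-like factor linked to the mitochondrial protein stress response (ENSG00000169136, chromosome 19, 49928702 to 49933935, plus strand), took another course. It held 43.7, 43.5 and 44.9 CPM with Soshiho-tang at 500 µg/mL, against 53.1, 56.4 and 55.2 CPM with vehicle. In the 18 libraries of the lower doses of all extracts it lay between 37.0 and 44.3 CPM, below every vehicle library. The share of all genes for which this was so is not given here, so it cannot be called particular to ATF5. The fitted log2 fold changes against vehicle, which all share the 3 vehicle libraries, ran from −0.51 to −0.14. Of these 9 values 8 were called, the exception being Okbyeongpung-san at 500 µg/mL. In each of the 9 comparisons 8.02 to 33.1% of all genes were called in either direction. The call at 100 µg/mL of Soshiho-tang was lost, at −0.36, without vehicle replicate 2. With Okbyeongpung-san at 500 µg/mL ATF5 was −0.50 against vehicle without replicate 2 of that dose and 0.13 without replicate 3. Each of these fits leaves 1 library at that dose. Between 500 and 20 µg/mL ATF5 was not called for any of the 3 replicated extracts. The difference was 0.13 ± 0.10 for Soshiho-tang and 0.37 ± 0.12 for Okbyeongpung-san, the last of which was 0.64 without replicate 3 at 500 µg/mL.

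The ATF5 level moved with MT-ATP8, a mitochondrially encoded subunit of ATP synthase. MT-ATP8 was at 1748 CPM in replicate 2 of Okbyeongpung-san at 500 µg/mL and at 231 to 611 CPM in the other treated libraries, against 1641 to 2135 CPM in vehicle libraries. The treated library with vehicle-like MT-ATP8 was also the treated library with the highest ATF5, 60.2 CPM. ATF5 shares its locus with NUP62, a nuclear pore gene on the opposite strand, which was lower by 0.33 ± 0.07 on the log2 scale with Soshiho-tang at 500 µg/mL. The part of depth, mitochondrial share or overlapping reads in the ATF5 difference was not tested.

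**Figure D4:**
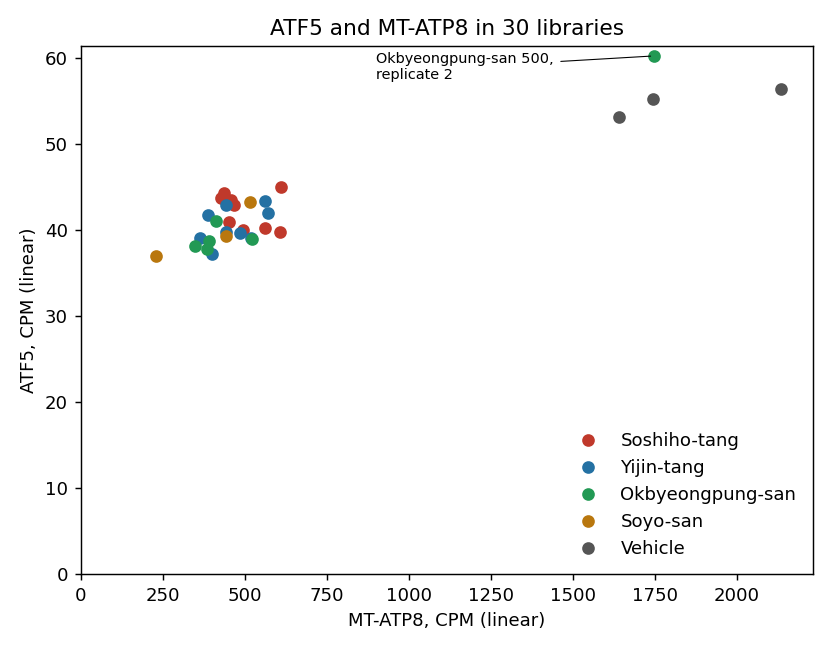
ATF5 (vertical) against MT-ATP8 (horizontal) in the 30 libraries, both in CPM on linear axes, coloured by extract or vehicle. The 3 vehicle libraries and replicate 2 of Okbyeongpung-san at 500 µg/mL lie at 1641 to 2135 CPM of MT-ATP8 and 53.1 to 60.2 CPM of ATF5, apart from the 26 other libraries.

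Over the 13 group means of log2 CPM the 45 pairs of genes all had a positive Pearson correlation, with a median of 0.81 and 24 pairs above 0.8. Without the group of Soshiho-tang at 500 µg/mL the median was 0.23 and 29 of the pairs were positive. The 5 pairs that stayed above 0.8 were all among DDIT3, TRIB3, CHAC1 and NUPR1, from 0.83 for TRIB3 with CHAC1 to 0.91 for TRIB3 with NUPR1, and the sixth pair of these 4 genes, DDIT3 with CHAC1, stood at 0.80. The points share vehicle, depth and processing, and these correlations describe the groups with no test. By the same measure over 13 groups the genes most like TRIB3 were SLC1A4 (r = 0.99), STC2 and CARS1, those most like DDIT3 were SLC1A4 (r = 0.98), GPT2 and STC2, and those most like CEBPG were MTHFD2 (r = 0.99), OGT and SLC39A14. For ATF5 they were FBRSL1 (r = 0.96), TICAM1 and MT-ATP8, and for CEBPB, CITED4 (r = 0.88), HEBP2 and PPP1R35. Without the group of Soshiho-tang at 500 µg/mL the same genes had r of 0.91 to 0.94 with TRIB3 and 0.78 to 0.82 with DDIT3. With CEBPG, MTHFD2 stood at 0.84, OGT at 0.61 and SLC39A14 at 0.67. The r with ATF5 was then 0.95 to 0.98 and that with CEBPB 0.84 to 0.85. When the vehicle group was left out instead, FBRSL1, TICAM1 and MT-ATP8 had r of 0.91, 0.90 and 0.86 with ATF5. The 3 genes most like ATF5 were then others, FAM174B, RARRES1 and TMUB2.

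The order of group means set Soshiho-tang at 500 µg/mL first for 8 of the 10 genes. The next places for DDIT3, TRIB3, CHAC1 and NUPR1 went to Soyo-san and then Yijin-tang, both at 500 µg/mL. That Soyo-san group is 1 library of batch D, and the Yijin-tang libraries are of batch E. For NUPR1 the fourth group, Okbyeongpung-san at 500 µg/mL, overlapped Yijin-tang in its libraries, and from there down neighbouring groups mostly did. For ATF3, CEBPG and PPP1R15A the groups below the first were close, with ranges of 4.74 to 6.80, 93.9 to 119 and 26.8 to 36.2 CPM over the libraries other than Soshiho-tang and Soyo-san at 500 µg/mL. CEBPB had Okbyeongpung-san at 500 µg/mL first and ATF5 had vehicle first.

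The wider pathway was followed in 5 lists of genes. Of 21 genes that sense stress or control eIF2, 6 were higher and 1 lower with Soshiho-tang at 500 µg/mL against vehicle (median 0.05; 17.2% of all genes higher and 16% lower), and 6 and 1 against 20 µg/mL, where 20.6% of all genes were called in either direction. The endoplasmic reticulum kinase EIF2AK3 was higher by 0.21 ± 0.08, the heme-regulated kinase EIF2AK1 lower by 0.22 ± 0.04 on the log2 scale, and the amino acid sensor EIF2AK4, at 0.08 ± 0.05, and the double-stranded RNA sensor EIF2AK2, at −0.22 ± 0.11, were not called. IMPACT, which inhibits the activation of EIF2AK4, was the most raised of the list, by 0.65 ± 0.07, followed by DNAJC3, an inhibitor of the eIF2 kinases, by 0.36 ± 0.07 and EIF2S2, the beta subunit of eIF2, by 0.31 ± 0.04. PPP1R15B, the constitutive counterpart of PPP1R15A, stood at 0.01 ± 0.08.

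Genes of amino acid supply rose in 16 of 19 members against vehicle, with 0 fallen, where 17.2% of all genes were higher (median 0.62, against 0.01 for all genes). Against 20 µg/mL 15 rose and 1 fell, where 10.3% of all genes were higher. Leading against vehicle were ALDH1L2, a mitochondrial folate enzyme, by 1.61 ± 0.10, ASNS, which makes asparagine, by 1.45 ± 0.06, and PHGDH, which begins serine synthesis, by 1.39 ± 0.07. With Yijin-tang at 500 against 20 µg/mL, 6 of the 19 were higher and 0 lower, where 0.286% of all genes were higher (median 0.17, against 0.00 for all genes), ALDH1L2, ASNS and PHGDH by 0.55 ± 0.10, 0.52 ± 0.06 and 0.41 ± 0.07. Of 16 other stress targets 13 were higher and 0 lower with Soshiho-tang at 500 µg/mL against vehicle (median 0.79; 17.2% of all genes higher), led by NIBAN1, a stress-induced gene, STC2, a secreted glycoprotein, and SESN2, an inhibitor of mTORC1 signalling, at 3.04 ± 0.14, 2.56 ± 0.07 and 1.29 ± 0.10. NIBAN1 and STC2 were also the 2 of these 16 called with Yijin-tang at 500 against 20 µg/mL, by 0.76 ± 0.15 and 0.79 ± 0.06.

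Genes of the other branches of the endoplasmic reticulum response, targets of ATF6 and XBP1, were higher in 11 of 16 and lower in 0 with Soshiho-tang at 500 µg/mL against vehicle (median 0.32; 17.2% of all genes higher), and in 8 with 0 lower against 20 µg/mL (median 0.13; 10.3% of all genes higher). DNAJB9 and HERPUD1, which serve protein quality control, and XBP1 itself rose by 0.90 ± 0.09, 0.85 ± 0.06 and 0.74 ± 0.08, and the chaperone HSPA5 by 0.65 ± 0.04. Of 15 further factors with a basic leucine zipper, possible partners of the group, 3 were higher and 6 lower (median −0.10), where 17.2% of all genes were higher and 16% lower. JUN was higher by 0.77 ± 0.06, and CEBPD and FOS were lower by 0.63 ± 0.12 and 0.52 ± 0.14 on the log2 scale.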

How the data were processed

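Messenger RNA libraries, 30 in all, were made with a directional kit and sequenced from both ends to 100 bp, per the labels' protocols. The deposited table gives an expected count for each gene and library, estimated by the authors with RSEM 1.3.3 after FastQC 0.11.9, Trim Galore 0.6.5 and STAR 2.7.3a on hg38 or GRCh38, per the submitters' processing notes; the annotation release and strand setting are not given in the sources used here. Between 9.09% and 11.6% of a library's values were not whole, and all were rounded. The table held 30 unnamed columns, which were empty and not used. Of the identifiers, 57055 were found in GENCODE release 29, the source of coordinates.

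An edgeR 4.0.16 fit in R 4.3.3 took in 27 libraries, leaving out Soyo-san with its single libraries, in 10 groups (TMM, filterByExpr, glmQLFit and glmQLFTest), which made 18 comparisons with Benjamini-Hochberg adjustment over 17459 genes. The SE was taken from the fold change and the F statistic, and the common coefficient of variation was 6.89%. CPM use TMM-adjusted totals over all 30 libraries. The fit was tested on simulated data. The alternatives were DESeq2 1.42.0, its size factors in edgeR, no filter, a replicate block, a batch term, the compared groups only, removal of mitochondrial genes, a transcript length offset and leaving out each library; 2 more, a fit with no vehicle libraries and a spread estimated without replicate 2 of Okbyeongpung-san at 500 µg/mL, were chosen after seeing the data. Same-numbered replicates were checked for pairing.

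The members and the 5 gene lists were chosen with earlier results of these data known. From each list the text names the 3 called genes with the largest absolute log2 fold change in Soshiho-tang at 500 µg/mL against vehicle, with EIF2AK1, EIF2AK2, EIF2AK3, EIF2AK4, PPP1R15B, ASNS and HSPA5 regardless. Genes most like a member are those with the highest Pearson correlation over 13 group means of log2 CPM, with a prior count of 2, among genes with a mean log2 CPM of at least 2.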

Additional observations from a re-analysis of the deposited data

Results flagged for a closer look

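The effect of dose, 500 over 20 µg/mL, differed between extracts by a test of the difference itself. In the difference of Soshiho-tang minus Yijin-tang the log2 values were 0.36 for ATF4, 1.38 for ATF3, 1.77 for DDIT3, 0.82 for CEBPG, 1.63 for TRIB3, 1.27 for CHAC1, 1.29 for PPP1R15A and 0.85 for NUPR1. In the difference of Soshiho-tang minus Okbyeongpung-san they were 1.65 for ATF3, 2.11 for DDIT3, 1.03 for CEBPG, 1.92 for TRIB3, 1.58 for CHAC1, 0.94 for PPP1R15A and 1.10 for NUPR1. The 2 differences share the Soshiho-tang libraries. Groups of 2 or 3 libraries were not screened for outlying samples.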

How the results depend on the processing

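Replicate numbers were not used as pairs in the main fit. In no comparison of 3 pairs did every correlation of same-numbered deviations exceed 0.1. In 56 of 126 cases a library correlated best with its own number, in a choice among 3 libraries. Whether this is more than unpaired libraries would give was not tested. With the replicate block the number of the 10 genes called was 2 for Yijin-tang against Okbyeongpung-san at 500 µg/mL, and no other count of the 10 genes changed by over 1.5 times. Among 64 called single-gene values, 407 of 447 values with a library left out kept the call and 40 lost it, and with the other settings 552 of 560 kept it and 8 lost it; none of these turned its sign.

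Counts of the 10 genes that moved were, without a filter, 2 for Soshiho-tang and 2 for Yijin-tang at 100 µg/mL and 1 for Okbyeongpung-san at 500 µg/mL against vehicle, 2 for Okbyeongpung-san at 500 against 20 µg/mL, 1 for Soshiho-tang at 100 against 20 µg/mL and 3 for Yijin-tang against Okbyeongpung-san. With the compared groups only they were 3 for Soshiho-tang at 20 µg/mL against vehicle and 0 for Yijin-tang against Okbyeongpung-san, also 0 with no vehicle in the fit. Against vehicle, Okbyeongpung-san had 0 at 100 µg/mL and 1 at 20 µg/mL with a batch term, and 1 at 100 µg/mL with a length offset. Calls over all genes moved as well under these other settings. Against vehicle they ran from 436 to 3344, 1032 to 4573 and 1169 to 4647 for Okbyeongpung-san at 500, 100 and 20 µg/mL. For Soshiho-tang they ran from 1820 to 2365 at 100 µg/mL and 1355 to 2993 at 20 µg/mL, and for Yijin-tang from 2566 to 3090 at 100 µg/mL. With a library left out the counts ran from 9 to 10 for Soshiho-tang at 500 µg/mL against vehicle, 8 to 9 against 20 µg/mL, 8 to 9 against Yijin-tang, 8 to 8 against Okbyeongpung-san and 7 to 8 for both dose differences. They ran from 0 to 1 for Soshiho-tang at 100 µg/mL, 1 to 2 for Yijin-tang at 100 and at 20 µg/mL, 0 to 2 for Okbyeongpung-san at 500 and at 20 µg/mL and 0 to 1 at 100 µg/mL, all against vehicle. For 500 against 20 µg/mL they were 1 to 2 with Yijin-tang and 0 to 3 with Okbyeongpung-san, and 0 to 4 for Yijin-tang against Okbyeongpung-san.

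ATF5 with Okbyeongpung-san at 500 µg/mL against vehicle was 0.13 without replicate 3 and −0.50 without replicate 2, and its dose difference of Soshiho-tang minus Okbyeongpung-san was −0.51 and 0.12 without the same libraries. CEBPB with Soshiho-tang at 500 µg/mL against vehicle was called, at 0.39 and 0.37, without a filter and with the compared groups only, as were DDIT3 (0.41, no filter) and NUPR1 (0.34, spread without replicate 2 of Okbyeongpung-san at 500 µg/mL) with Yijin-tang at 500 against 20 µg/mL. With the compared groups only, ATF4 in Soshiho-tang against Okbyeongpung-san at 500 µg/mL was 0.31 and no longer called. Over all genes, calls for Okbyeongpung-san at 500 against 20 µg/mL numbered 278, with 0 to 889 under the other settings and 39 to 4054 with a library left out, the highest without replicate 3 at 500 µg/mL; for Yijin-tang against Okbyeongpung-san they numbered 403, with 3 to 1711 and 39 to 4136. The cause of these shifts was not tested. Depth was 19833144 counts or more, and replicates of 2 or 3 limit the smallest differences called.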
